A study of Canis lupus familiaris with 3 samples.

Results

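The 6 genes described here encode matrix metalloproteinases (MMPs) and tissue inhibitors of metalloproteinases (TIMPs), namely TIMP1, TIMP3, MMP1, MMP8, MMP10 and MMP14. They were compared between E47 transfectants of MDCK, a canine kidney epithelial cell line, and MDCK-CMV controls. E47 is a helix-loop-helix protein made from the TCF3 gene, and the series title names it as a repressor in the regulation of E-cadherin and of the epithelial to mesenchymal transition. The 6 genes were chosen from their ratios in this same comparison, so their values are given as a description. Nothing is read from their p-values in the fit over all features. Spots were assigned to them where the platform annotation gives 1 of these symbols and no other. This found 24 spots of 27648, at 12 print positions of 2 adjacent spots each, from 10 cDNA clones. Of these spots 20 had a value on every array, and every one of the 6 genes kept at least 2 such spots.

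MDCK-E47 cells and MDCK-CMV cells were grown in DMEM with Glutamax-1, fetal bovine serum, penicillin-streptomycin and fungizone. Amplified RNA of the E47 cells was hybridised in 1 dye against RNA of the control cells in the other, on 3 two-colour arrays of human cDNA clones. The labels number the E47 cells 1 and 2, which the design text gives as separate RNA extractions, so that n = 2. The p-values rest on the spread between 2 extractions, which may be technical. For each gene, limma combined its own spread with that over all features. Extraction 1 was on 1 array with E47 in Cy5, and extraction 2 on a dye swap with E47 in Cy3 on one array and in Cy5 on the other. The labels do not say whether the transfectants are a pool or 1 clone of cells, or whether the control RNA was extracted once or repeatedly.

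Every value below is a log2 ratio of E47 over control, as deposited. Triplets of array values are in the order extraction 1 in Cy5, extraction 2 in Cy3 and extraction 2 in Cy5. This direction is not stated and was taken as likely because the labels list E47 as first channel on each array. With the opposite direction every sign would turn. Base 2 of the logarithm is read from the values and is not stated either. In natural logarithms the folds would be larger, 9.26 in place of 4.68 for TIMP1. CDH1, the E-cadherin gene, was at −3.59 ± 0.09 (SD, n = 2 extractions), with clone means of −4.33 and −2.84. TCF3 was at −0.29 ± 0.03, which checks nothing about the introduced cDNA, since the clones' overlap with it is not known here. The arrays gave values for 25537, 25282 and 24771 spots, with SDs of 0.62, 0.43 and 0.54. A ratio shows no level, so the labelled epithelial cell type could not be checked by presence of its markers. Of 8 epithelial markers measured 7 were lower and none higher at an adjusted p under 0.05. Of all 5508 named genes 3.85% were lower and 5.34% higher at that threshold. Of 3 mesenchymal markers COL1A2 alone was higher, at 0.68 from clones of opposite sign. Of 4 leukocyte markers PTPRC alone was higher, at 1.03 from 1 spot. Their part in the results was not tested.

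MMPs are zinc endopeptidases that cleave collagens, proteoglycans and other proteins of the extracellular matrix and cell surface. Most are secreted as inactive proenzymes, and a few, MMP14 among them, are anchored in the plasma membrane. TIMPs bind the active site of MMPs and block it. TIMP1 is a soluble inhibitor that acts weakly on membrane-anchored MMPs, whereas TIMP3 is held in the matrix and also inhibits several ADAM proteases. In epithelia this balance of proteases and inhibitors bears on the turnover of the basement membrane and on shedding of surface proteins.

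The inhibitor TIMP1 was higher in E47 cells and the inhibitor TIMP3 lower, each among the most extreme genes of its side. TIMP1 had array values of 2.04, 2.62 and 2.21, and its mean of 2.23 ± 0.27 (SD, n = 2 extractions) is a 4.68-fold higher signal in E47 cells. TIMP3 had array values of −2.14, −2.80 and −2.13, with a mean of −2.30 ± 0.23 (SD, n = 2), which is 4.94-fold lower. The sizes were thus alike and the signs opposite on all 3 arrays. Among 5508 named genes TIMP1 had the 12th highest mean, and it ranked 22nd, 4th and 11th highest on the arrays. TIMP3 had the 10th lowest mean and ranked 26th, 6th and 14th lowest. The difference between both log2 ratios, TIMP1 minus TIMP3, was 4.18, 5.42 and 4.34. It is a difference of changes, not of the amounts of the transcripts.

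Both directions were the same in every clone and spot. TIMP1 was printed as 2 clones at 1 position each. The first gave 2.13 and 2.10 on the array of extraction 1, 2.69 and 2.70 on the Cy3 array and 2.08 and 2.05 on the Cy5 array of extraction 2. For the second, the same order gave 1.93 and 1.98, 2.58 and 2.50, and 2.40 and 2.31. All 12 TIMP1 spot values thus lay between 1.93 and 2.70, with clone means of 2.25 ± 0.19 and 2.20 ± 0.35 (SD, n = 2). The clones differed from each other by less than the extractions did.

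TIMP3 was printed at 3 positions, 2 of them with the same clone. That clone gave −2.60, −3.28 and −2.80 at one position and −2.38, −3.23 and −2.51 at the other, so its repeats differed by at most 0.29 on an array. The second TIMP3 clone gave −1.45, −1.88 and −1.07. It was below 0 on every array but nearer to 0 than either repeat of the first clone on each of them. Its mean was −1.46 ± 0.01, against −2.82 ± 0.31 and −2.62 ± 0.35 for the repeats (SD, n = 2). The size of the TIMP3 change therefore depends on the clone by over 1 log2 unit, while its sign does not. The 18 TIMP3 spot values ran from −3.29 to −1.06.

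**Figure D1:**
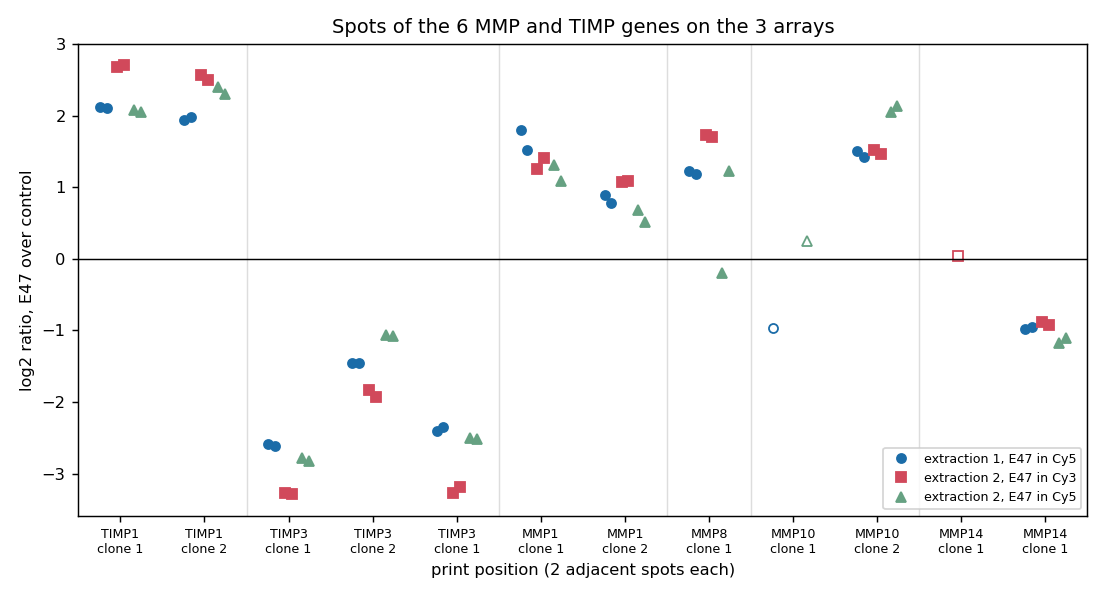
Log2 ratios (E47 over control) of all spots with a value for the 6 genes, by print position, with 1 colour and symbol per array; filled symbols are from positions with values on all 3 arrays, open symbols from positions left out of the means. All TIMP1 spots lie between 1.93 and 2.70, all TIMP3 spots between −3.29 and −1.06, and 1 MMP8 spot lies at −0.20 on the Cy5 array of extraction 2.

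The 3 secreted proteases were higher in E47 cells, by less than TIMP1. MMP1, the interstitial collagenase, had array values of 1.25, 1.21 and 0.90 and a mean of 1.15 ± 0.14 (SD, n = 2), or 2.22-fold. Both of its clones were above 0 on every spot and array. The first gave 1.66, 1.33 and 1.20 and the second 0.84, 1.08 and 0.61, so the first was higher on each array. Its spot values ran from 0.52 to 1.80.

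MMP8, the collagenase best known from neutrophils, was measured by 1 clone at 1 position. Its array values were 1.21, 1.72 and 0.52, and its mean was 1.16 ± 0.06 (SD, n = 2), or 2.24-fold. This SD is that of the extraction means alone and leaves out the dye swap, whose arrays differed by 1.20. On the Cy5 array of extraction 2 the partner spots disagreed in sign, at −0.20 and 1.23, whereas they lay at 1.23 and 1.19 on extraction 1 and at 1.74 and 1.70 on the Cy3 array. Without the discordant spot the mean was 1.33, and without its partner it was 1.00.

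MMP10, a stromelysin that cleaves many matrix proteins and activates other proMMPs, had array values of 1.46, 1.49 and 2.09. The mean was 1.63 ± 0.23 (SD, n = 2), or 3.09-fold, from 1 clone whose spots differed by at most 0.09. A second MMP10 clone had a value on only 2 arrays and at only 1 of its spots, at −0.96 on extraction 1 and 0.25 on the Cy5 array of extraction 2. These values are not near those of the first clone, and with them kept the MMP10 mean was 1.07. The symbol MMP10 is not in the dog gene table used for names, and human clones of this family can bind related dog transcripts, so the ratio is that of the clone rather than of 1 dog gene.

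MMP14, the membrane-anchored collagenase that activates proMMP2 together with TIMP2, was lower in E47 cells. Its array values were −0.97, −0.91 and −1.14, with a mean of −0.99 ± 0.04 (SD, n = 2), or 1.99-fold lower. The spots of this position ran from −1.18 to −0.89. The same clone was printed at another position, which gave a single value of 0.04 on the Cy3 array and none elsewhere. With it kept the mean was −0.92. MMP14 thus went against the 3 secreted proteases and in the direction of TIMP3.

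All 6 genes had the same sign on the 3 arrays after averaging. For comparison, 1683 of 5508 named genes were above 0 and 1805 below 0 on every array. The arrays of the dye swap alone differed in sign for 28.6% of the named genes. At 2-fold or more on each of the 3 arrays stood TIMP1 and MMP10 among the higher genes, where 1.36% of named genes did, and TIMP3 among the lower, where 0.853% did. In the fit across all 14008 features each of the 6 was past an adjusted p of 0.05, as were 9.19% of named genes, 5.34% higher and 3.85% lower. MMP8 was not past it with either array of the dye swap left out, at 0.0553 without the Cy5 array and 0.0743 without the Cy3 array. MMP14 was not past it without the Cy5 array, at 0.0572, nor MMP10 with all spots kept, at 0.0854. Nothing is read from these counts and p-values, since the genes were picked from this contrast. The Cy3 array had the smallest SD of the 3 arrays, but TIMP1, TIMP3 and MMP8 had their largest sizes there. The Cy3 minus Cy5 difference of extraction 2 was 0.41 for TIMP1, 0.30 for MMP1, 1.20 for MMP8 and 0.24 for MMP14. It was −0.67 for TIMP3 and −0.60 for MMP10. Its sign thus differed between the genes, and a dye effect was not tested.

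Across the family, 24 MMP and TIMP genes had a value on every array, and the 18 that were not chosen mostly stayed near 0. They are what was left after the genes with large ratios were taken, so their counts are conditional on that choice. Of the 18, MMP19 rose and none fell at an adjusted p under 0.05, against 9.19% of all named genes. MMP19, a secreted protease of basement membrane proteins, had array values of 0.64, 0.75 and 0.71 and a mean of 0.69 ± 0.06 (SD, n = 2, limma adjusted p = 0.0356). Its clones gave means of 0.61 and 0.77. Scaling of the arrays took its call away, at a limma adjusted p of 0.0588, as did taking extraction 2 from its Cy3 array, at 0.0865.

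The gelatinases, which degrade denatured collagen and basement membrane collagen, had small mean ratios. MMP2 was at −0.14 ± 0.01 and MMP9 at −0.14 ± 0.12 (SD, n = 2 each), with limma adjusted p-values of 0.297 and 0.358. The MMP9 mean hides a wide spread between its 6 print positions, whose means ran from −0.95 to 0.73. One position gave −1.54, 0.69 and −1.42, so its sign differed between the dyes. A repeat of the same clone elsewhere on the array gave 0.10, 0.23 and 0.13. The ratio of MMP9 was therefore not settled by these clones.

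MMP15, a membrane-anchored protease related to MMP14, was at −1.19 ± 1.01 (SD, n = 2) with a limma adjusted p of 0.137. A single spot at −4.31 on extraction 1, with −0.51 and −0.41 on the other arrays, set this mean. The other MMP15 clone gave −0.70, −0.33 and −0.64. The membrane-anchored MMP16, MMP24 and MMP25 were at 0.33, 0.20 and −0.26. MMP11, whose proenzyme is activated inside the cell, was at −0.30, and MMP12, the macrophage elastase, at 0.41. MMP23B and MMP27 were at 0.19 and 0.31, and MMP7, MMP13, MMP20, MMP26 and MMP28 lay between −0.07 and 0.07. None of these passed, with limma adjusted p-values from 0.0746 to 0.839. The median over the 16 MMPs that were not chosen was 0.03, beside −0.02 over all named genes. MMP17 lacked a Cy3 value and gave −0.53 and −0.45 on extraction 1 and −0.44 and −0.49 on the Cy5 array of extraction 2.

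TIMP2, a soluble inhibitor that also takes part in activation of proMMP2, was at 0.45 ± 0.05 (SD, n = 2), with a limma adjusted p of 0.0680. Here 2 print positions of the same clone disagreed, at 0.77, 1.02 and 0.36 for one and −0.27, −0.18 and −0.20 for its repeat. The other clone gave 0.73, 1.08 and 0.82, near the first of these. With the median over spots TIMP2 was at 0.71, with a limma adjusted p of 0.0336. TIMP4 was at 0.01 ± 0.02 (SD, n = 2, limma adjusted p = 0.965). The order of the 4 TIMPs was thus TIMP1, TIMP2, TIMP4 and TIMP3. On each array TIMP1 and TIMP3 lay outside the spread of the others, but they were chosen from these ratios, so nothing is read from this.

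**Figure D2:**
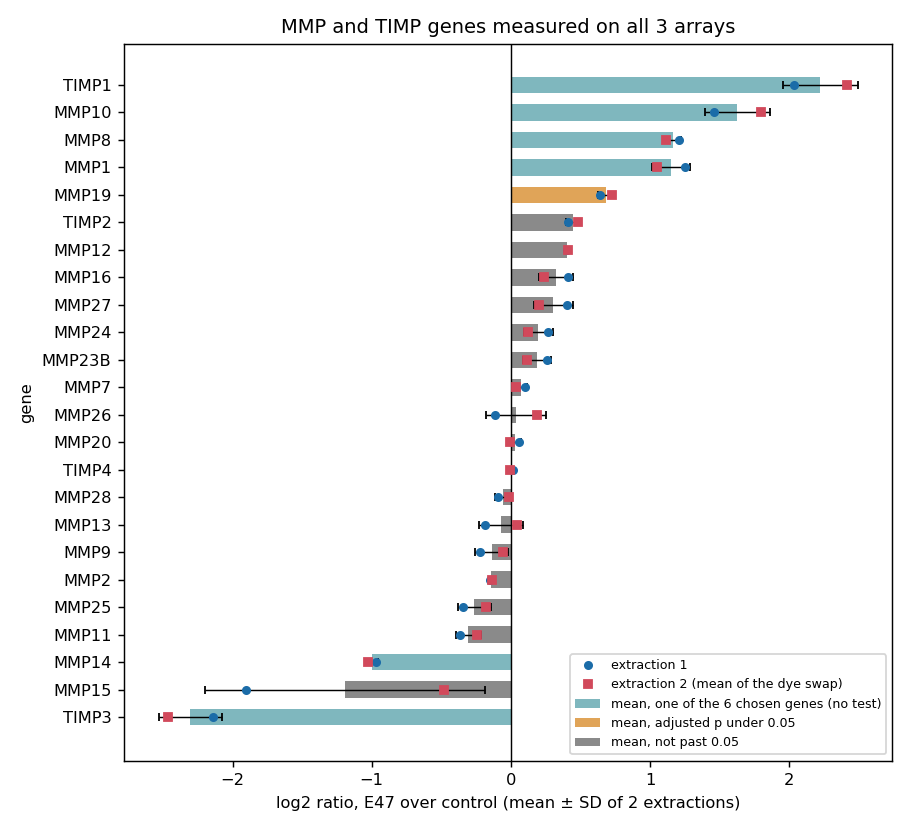
Mean log2 ratio (bars, E47 over control) of the 24 MMP and TIMP genes with a value on every array, with the SD of 2 extractions as error bars and each extraction as a point. TIMP1 is at 2.23 and TIMP3 at −2.30 at the ends, MMP19 alone passed among the genes not chosen, and the extractions of MMP15 lie far apart.

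Several MMP genes lie side by side in mammalian genomes. RefSeq's dog genes of assembly UU_Cfam_GSD_1.0, used for names and order alone, place in 1 run MMP13, MMP12, MMP3, MMP1, a pseudogene and a protein-coding gene without a symbol, MMP8, MMP27, MMP20 and MMP7. In that order the measured means were −0.07 for MMP13, 0.41 for MMP12, 1.15 for MMP1, 1.16 for MMP8, 0.31 for MMP27, 0.03 for MMP20 and 0.07 for MMP7. MMP3 was not measured here. The chosen gene MMP10 could not be placed in this order, because its symbol is not in the dog gene table. Whether the gene without a symbol is its dog counterpart was not tested. The chosen genes MMP1 and MMP8 were the highest of the 7 on average. On the Cy5 array of extraction 2, however, MMP8 at 0.52 did not stand above MMP12 at 0.52. Cross-binding between clones and transcripts of this run was not tested.

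**Figure D3:**
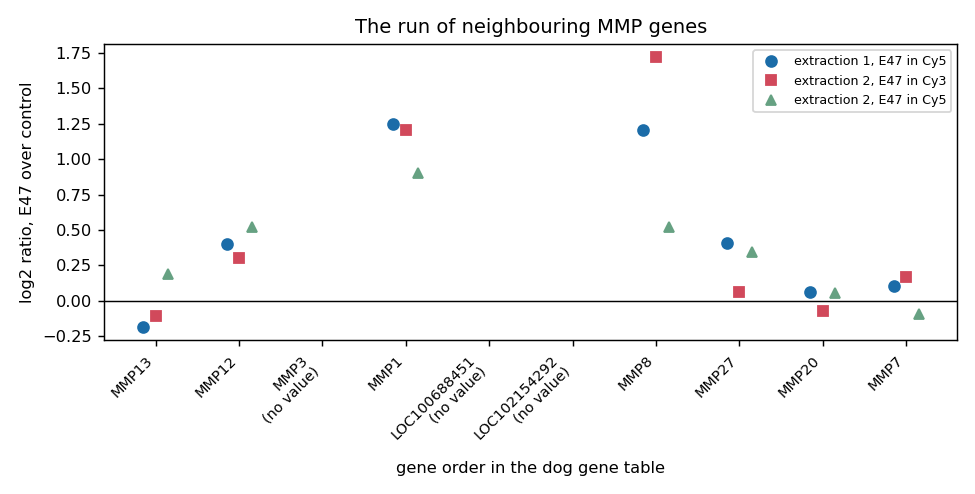
Log2 ratios (E47 over control) on the 3 arrays for the run of neighbouring MMP genes, in the order of the dog gene table; each symbol is 1 array. MMP1 and MMP8 have means of 1.15 and 1.16, MMP13, MMP20 and MMP7 have means between −0.07 and 0.07, and MMP8 has the widest spread between arrays.

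The genes whose array values lay nearest to those of TIMP1, by Euclidean distance over the 3 arrays, were ADGRL2, TMSB4Y, FN1, GPC3 and STMN1, at distances from 0.14 to 0.64. ADGRL2, an adhesion G protein-coupled receptor, had 2.17, 2.57 and 2.18. FN1, which encodes fibronectin, had 2.43, 2.27 and 2.01. Nearest to TIMP3 were RGS2, TSPAN13, KRT14, HERPUD1 and SLC2A1, at distances from 0.51 to 1.01. RGS2, a regulator of G protein signalling, had −2.23, −2.29 and −2.18. All these names, TMSB4Y among them, are those of human clones, and which dog transcripts they bound was not tested.

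Other metalloproteinase inhibitors and serine protease inhibitors of the cell surface were measured beside the TIMPs. Of 6 such genes, TIMP2 and TIMP4 included, 2 fell, none rose and 4 did not pass, beside 3.85% of all named genes lower and 5.34% higher. SPINT1 and SPINT2, membrane-anchored Kunitz inhibitors of serine proteases, were at −0.92 ± 0.06 and −0.92 ± 0.06 (SD, n = 2 each), both with a limma adjusted p of 0.0247. SPINT1 had array values of −0.97, −1.31 and −0.44, a dye swap gap that its SD leaves out. It lost its call with either array of the dye swap left out, at 0.0572 without the Cy5 array and 0.0723 without the Cy3 array. SPINT2 lost it without the Cy5 array, at 0.0717. The 2 SPINT2 clones had opposite signs on every array, with −2.41, −2.27 and −2.52 for one and 0.49, 0.80 and 0.50 for the other, so its direction was not settled by these clones. RECK, a membrane-anchored inhibitor of MMPs, was at 0.01 and CST3, the cathepsin inhibitor cystatin C, at −0.04. Of 7 ADAM, ADAMTS and related genes none passed by limma, with 3 at an unadjusted p under 0.05. Of all 5508 named genes 9.19% passed and 1963 had an unadjusted limma p under 0.05. ADAMTS3, a procollagen protease, was at 0.84 ± 0.64 (SD, n = 2, limma adjusted p = 0.125) and gave −0.10 on the Cy3 array against 1.30 and 0.87 on the Cy5 arrays. From the Cy5 arrays alone its limma adjusted p was 0.0405. ADAM23 was at 0.34. ADAM17, a sheddase that TIMP3 inhibits, was chosen for mention after its value was seen and was at 0.02 ± 0.08 (SD, n = 2).

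Among activators of proMMPs and surface partners of MMPs and TIMPs, 2 of 13 genes rose and 1 fell, beside 5.34% and 3.85% of all named genes, and the list median was 0.04. ITGAV, an integrin subunit, was at 1.22 ± 0.24 and CD44, a hyaluronan receptor that can dock MMPs, at 0.96 ± 0.09 (SD, n = 2 each), with limma adjusted p-values of 0.0263 and 0.0247. PLAU, the urokinase plasminogen activator, was at −1.14 ± 0.28 (SD, n = 2, limma adjusted p = 0.0322), with array values of −1.34, −0.76 and −1.13. The 3 lost their calls when extraction 2 was taken from its Cy3 array, at 0.0811, 0.0584 and 0.0930.

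Of 17 genes for matrix proteins that MMPs cleave, 4 rose, 1 fell and 12 did not pass, with a median of −0.09. Over all named genes 5.34% rose and 3.85% fell. SPARC, a matricellular glycoprotein, was at 2.85 ± 0.05, FN1 at 2.29 ± 0.20, the proteoglycan gene VCAN at 1.19 ± 0.04 and COL1A2, a chain of type I collagen, at 0.68 ± 0.07 (SD, n = 2 each). NID2, a basement membrane linker, was at −1.15 ± 0.02 (SD, n = 2). These SDs leave out the dye swap, where SPARC was at 3.24 in Cy3 and 2.38 in Cy5. The SPARC clones had means of 2.61 and, from 1 spot, 3.31. The COL1A2 clones had opposite signs on every array, at 1.83, 1.13 and 1.29 for one and −1.48, −0.36 and −0.68 for the single complete spot of the other. COL1A2 lost its call when clones were averaged first, at 0.26 with a limma adjusted p of 0.160, with all spots kept, at 0.0925, and when extraction 2 was taken from its Cy3 array, at 0.0896.

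Among 16 measured transcription factors that bind MMP promoters, 3 fell and none rose, beside 3.85% of all named genes lower and 5.34% higher, and the median was −0.18. FOS and JUNB, subunits of the AP-1 factor, were at −0.87 ± 0.25 and −0.72 ± 0.18, and the stress-induced ATF3 at −0.93 ± 0.01 (SD, n = 2 each), with limma adjusted p-values of 0.0429, 0.0466 and 0.0241. One FOS clone gave −1.42, −1.17 and −1.31 and the other −0.66, 0.01 and −0.32. JUNB lost its call with median centring, at 0.0507, and with scaled arrays, at 0.0782. When extraction 2 was taken from its Cy3 array, the 3 lost their calls, at 0.116 for FOS, 0.105 for JUNB and 0.0572 for ATF3. Of 11 cathepsins and related lysosomal proteases, CTSO rose to 1.31 ± 0.06 and CTSH fell to −0.58 ± 0.07 (SD, n = 2 each), with limma adjusted p-values of 0.0197 and 0.0475, and the median was −0.12. CTSH lost its call with scaled arrays, at 0.0515, with all spots kept, at 0.0503, and from the Cy3 array of extraction 2 with extraction 1, at 0.249. Over the 7 lists together 8 of 86 genes were higher and 8 lower, or 18.6% past the threshold beside 9.19% of all named genes. The lists were chosen with earlier results known, and nothing is read from this difference.

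**Figure D4:**
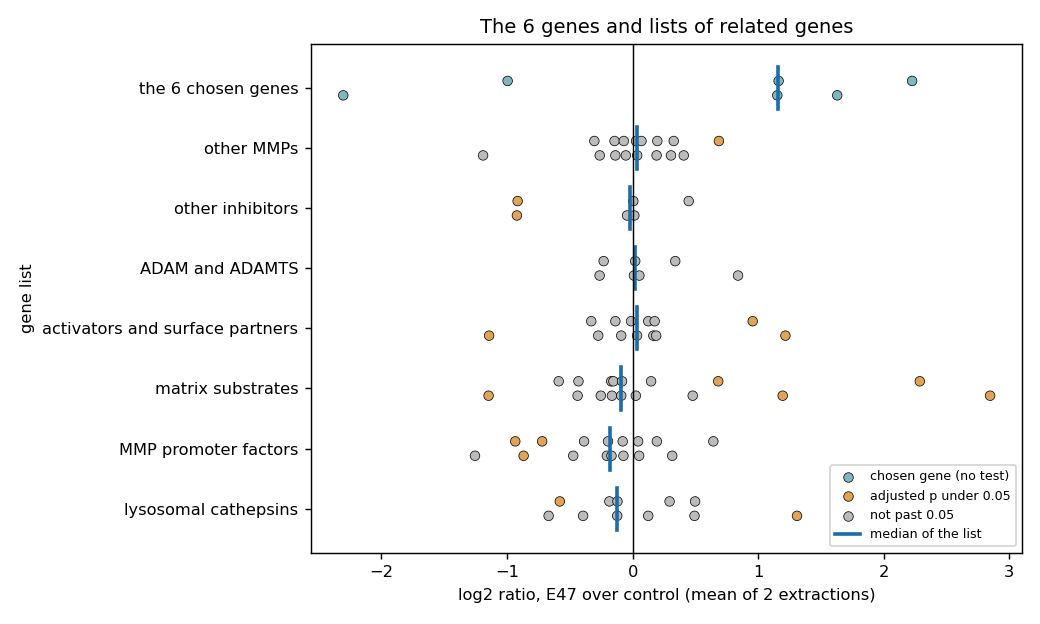
Mean log2 ratios (E47 over control) of the 6 chosen genes and of 7 lists of related genes, 1 point per gene, with orange points past an adjusted p of 0.05 and a blue line at each list's median. The list medians lie between −0.18 and 0.04, and the points farthest from 0 outside the chosen genes are SPARC at 2.85 and FN1 at 2.29.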

How the data were processed

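The authors deposited 1 column of log ratios for each array, read here as log2. How background and dyes were corrected, and the base and direction of the ratio, are not given in the labels. Column medians were −0.0051, 0.0027 and 7.67e-04. Base 10 does not suit a largest value of 7.80, above 4.82, the log10 of a 16-bit range. The columns correlated positively, with r from 0.58 to 0.76, the dye swap included, so no sign was turned.

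Of the spots, 17488 carried 1 symbol, 654 several and 9506 none. Complete spots, measured on all 3 arrays, were averaged per gene, giving 5508 genes and 8500 unnamed features. The dye swap was averaged, and limma 3.58.1 (lmFit, eBayes, R 4.3.3) tested whether each of the 14008 mean log2 ratios differed from 0. P-values were adjusted over all features by Benjamini-Hochberg, with a threshold of 0.05. With the control as common reference its own spread is left out. There is 1 residual degree of freedom, beside 2.71 of the prior. Signal intensities were not used here, so no spot was removed in this work for being dim. The deposited columns had 2111, 2366 and 2877 empty values, and whether those spots were dim is not known here.

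The members, the 7 lists and the naming rule were chosen with earlier results of these data known. The rule named the 6 genes, all of the other MMPs and inhibitors, up to 6 passing genes of each further list or else the 2 largest, and the 5 genes nearest to TIMP1 and TIMP3. Clones were told apart by their sequence accession. The symbols of the MMPs and TIMPs are in the dog table except for MMP10 and MMP23B. Alternatives changed the dye swap, centring, scaling, spot filter, averaging, eBayes setting, threshold and features fitted. Figures were drawn with matplotlib 3.10.9.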

Additional observations from a re-analysis of the deposited data

How the results depend on the processing

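Leaving out 1 of 2 extractions cannot move a mean by 1 SD between them, and some settings leave a gene's value as it is. Of the 39 other recomputed means of the 6 genes, 25 moved by no more than 1 SD between extractions, 14 moved further and none changed sign. Means with either extraction left out ran from 2.04 to 2.41 for TIMP1, −2.46 to −2.14 for TIMP3, 1.05 to 1.25 for MMP1, 1.12 to 1.21 for MMP8, 1.46 to 1.79 for MMP10 and −1.02 to −0.97 for MMP14. With extraction 2 from its Cy5 or its Cy3 array alone, MMP8 was at 0.86 or 1.46 and MMP14 at −1.05 or −0.94. Without either of its spots MMP8 was at 1.33 or 1.00. The median over spots put TIMP3 at −2.62, because 4 of its 6 spots hold 1 clone. From single print positions TIMP3 was at −2.82, −1.46 and −2.62 and MMP1 at 1.46 and 0.84. The settings with single spots or positions were chosen after seeing the data. With all spots kept MMP10 was at 1.07 and MMP14 at −0.92. The count of named genes past the threshold was 506, and it was 919 with the Cy5 array, 109 with the Cy3 array, 1175 with named genes alone in the fit and 0 at a threshold of 0.01, where the smallest adjusted p of limma was 0.0194 and 1963 genes had an unadjusted p under 0.05. The count over the 7 lists was 16, against 25, 5, 27 and 0 in these settings. Near 0 and past no threshold, signs turned for MMP13 at 0.00368, MMP26 at −0.018, CST3 at 0.030 and RECK at −0.019 with the Cy5 array, for MMP20 at −0.0048 and TIMP4 at −0.049 with the Cy3 array, and for TIMP4 at −0.00808 with scaled arrays. The cause of these shifts was not tested. Each ratio already pairs E47 RNA with control RNA on the same array. No further pairing was possible because the E47 samples form 1 group. The number of arrays limits the precision, and the signal over background of each spot is unknown here.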
